A study of Mus musculus with 26 samples.

Results

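Mammary tumors of MMTV-PyMT mice that had received 1 of 2 antisense oligonucleotides (ASOs) against the same RNA, Malat1, were compared with each other. The titles of the samples name 3 tumors with ASO1 and 4 with ASO2, which makes 7 of the 26 libraries of the series, and these 7 are compared here. In MMTV-PyMT mice a mammary-active viral promoter drives the polyoma middle T antigen, an oncoprotein, so that tumors arise from mammary epithelium. All tumors shared this genotype and the C57BL/6 strain, and both ASOs were given under the skin at 125 mg/kg per week over several weeks. As controls stood 3 tumors with the oligonucleotide scASO, given at the same dose. Also used were 16 cultures of tumor organoids, 4 each labelled ASO1, ASO2, scASO or Mock. Oligonucleotides were given to the organoids at 500 nM for 6 days and replenished on day 3. The labels give neither the ages of the mice nor whether the tumors of a group came from separate mice, so p-values measure the spread between these libraries.

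Malat1 is an abundant long noncoding RNA that stays in the nucleus and collects at nuclear speckles, bodies rich in splicing factors. An ASO of this kind pairs with its target RNA, and RNase H then cuts the RNA strand of the pair. The comparison asks what differs between tumors given different ASOs against the same RNA. The study concerned how mammary tumors differentiate and spread when Malat1 is lost, and secretory differentiation of mammary epithelium is known by its milk proteins.

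Depth, in M reads assigned to genes, was 22.6, 51.4 and 29.5 in ASO1 tumors 1 to 3, and 28.3, 31.2, 24.5 and 9.94 in ASO2 tumors 1 to 4. Values below are CPM, counts scaled to a common library size. No library was a near copy of another. The epithelial genes Epcam, Krt8, Krt18, Krt19 and Cdh1 were present throughout, with sums of 2732 to 4768 CPM with ASO1 and 3160 to 5021 CPM with ASO2. One library stood apart: in a principal component analysis of 500 genes that varied most, along component 1 (32.9% of variance), ASO2 tumor 1 lay at 56.2, whereas the other 6 tumors with ASO1 or ASO2 lay between -28.6 and 22.2. That tumor held 2071 CPM of 6 skeletal muscle genes (Acta1, Ckm, Mylpf, Myh1, Myh4 and Tnnt3), against 2.2 to 5.29 CPM in the ASO1 tumors and 1.88 to 67.0 CPM in the other ASO2 tumors. In bulk tissue, fewer cells of a type and less RNA per cell cannot be told apart.

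Malat1 itself (chromosome 19, 5795690 to 5802672 on GRCm38, minus strand) overlapped between the groups. It stood at 945, 885 and 466 CPM with ASO1 and at 694, 1035, 730 and 428 CPM with ASO2. The ranges overlapped along most of their length, and each group had 1 tumor well under the others, ASO1 tumor 3 and ASO2 tumor 4. The means were 765 ± 261 CPM (SD, n = 3) and 722 ± 249 CPM (SD, n = 4). On the log2 scale ASO1 exceeded ASO2 by 0.09, or 106% of the ASO2 level (exact two-sided permutation test over 35 splits, p = 0.857; the smallest p that 3 against 4 tumors allow is 0.0571). With 1 of the 7 tumors left out this difference lay between -0.14 and 0.41, so that its sign is not settled. The control tumors held 1799, 2176 and 945 CPM, and the geometric means with ASO1 and ASO2 were 47.2% and 44.5% of theirs.

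Neat1 (chromosome 19, 5824708 to 5845478), the neighbouring long noncoding RNA that forms the core of paraspeckles, had a higher mean with ASO2. Its levels were 748, 1174 and 1471 CPM with ASO1 and 3724, 1408, 1183 and 3096 CPM with ASO2, with 2428, 951 and 1626 CPM in the control tumors. ASO2 tumors 1 and 4 lay above all ASO1 tumors, and ASO2 tumors 2 and 3 lay within their range. The log2 difference of -0.94 had an exact two-sided permutation p of 0.229, and in the fit across genes it was -1.06 ± 0.47 (SE, edgeR adjusted p = 0.496). With skeletal muscle and adipocyte levels as covariates it was -0.09.

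**Figure D1:**
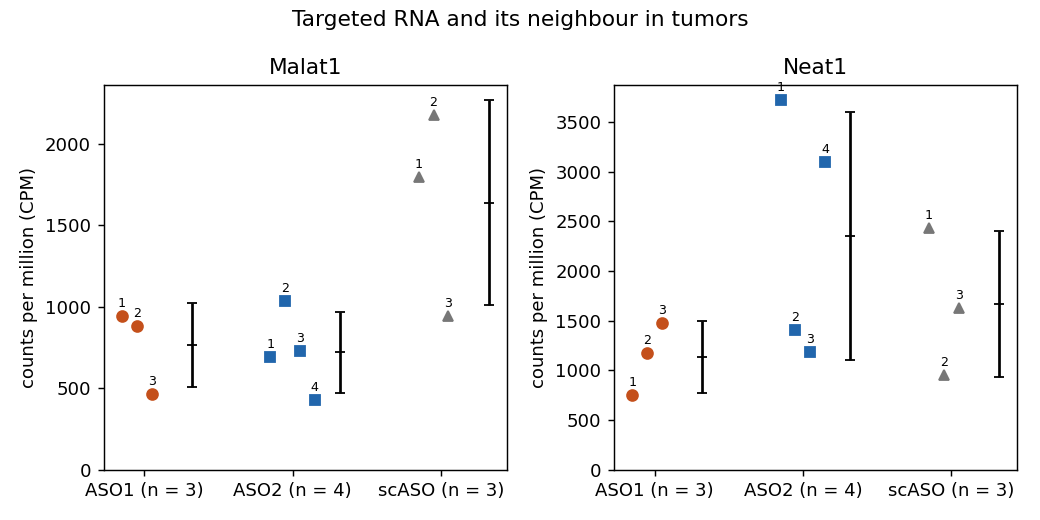
Levels of Malat1 (left) and Neat1 (right) in CPM for each tumor, numbered by its replicate, in the ASO1 (n = 3), ASO2 (n = 4) and scASO (n = 3) groups. Black marks are means with SD. Malat1 with ASO1 (466 to 945) and ASO2 (428 to 1035) covers the same range, and for Neat1 ASO2 tumors 1 and 4 (3724 and 3096) stand above the others.

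Across the transcriptome no gene passed the test between the ASOs. Of 17354 genes tested, the quasi-likelihood test of edgeR, adjusted by Benjamini and Hochberg, called 0 at 0.05 (percent called 0). At an unadjusted p under 0.05 stood 1743 genes (10%), of which 911 (5.25%) had the higher estimate with ASO1 and 832 (4.79%) with ASO2. DESeq2 called 149 genes (66 higher with ASO1 and 83 with ASO2), and limma voom with quality weights called 0, with 1062 at an unadjusted p under 0.05. Of the 30 genes named below for their small p in these same tumors, DESeq2 called 30 and limma voom 0. Whether these genes are called thus depends on the tool. In 1031 genes (5.94%) the 3 ASO1 and 4 ASO2 values did not overlap: 516 (2.97%) were higher in every ASO1 tumor and 515 (2.97%) in every ASO2 tumor. The median log2 fold change over all genes tested was 0.02, and 51.7% of genes had the higher estimate with ASO1. Genes and groups named below are therefore described by their values and not as changes. Counts of members in the gene lists below are to be read beside these shares of all genes.

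Among the 15 genes with the smallest p and a higher estimate with ASO1 were genes of cell adhesion, transport, proliferation and vessels. Tns4, which encodes tensin 4, an adaptor at focal adhesions of epithelial cells (chromosome 11, 99065678 to 99089306), stood at 30.6, 38.2 and 45.0 CPM with ASO1 and at 14.3, 9.66, 12.4 and 12.3 CPM with ASO2. The control tumors held 13.8, 13.4 and 16 CPM, so the ASO1 tumors were apart from both other groups and these lay near each other. The means of 38.0 ± 7.19 and 12.2 ± 1.91 CPM (SD, n = 3 and 4) differed 3.12-fold (log2 fold change 1.64 ± 0.21 SE, edgeR adjusted p = 0.0698). Without any 1 tumor its log2 fold change stayed between 1.49 and 1.78.

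Slc47a1 (chromosome 11, 61343401 to 61378345) encodes MATE1, which carries organic cations out of kidney and liver cells. Its levels were 18.7, 20.6 and 50.3 CPM with ASO1, 4.16, 5.52, 4.60 and 5.37 CPM with ASO2, and 1.33, 2.43 and 1.55 CPM with scASO. The 3 groups did not overlap, with ASO2 tumors between the others. ASO1 exceeded ASO2 6.07-fold in the means (log2 fold change 2.60 ± 0.38 SE, edgeR adjusted p = 0.138). Against the control tumors the log2 fold change was 4.07 for ASO1 (edgeR adjusted p = 0.0442) and 1.47 for ASO2 (edgeR adjusted p = 0.886); both contrasts use the same 3 control tumors. Of 14 genes tested on a list of organic cation and drug transporters, 11 had the higher estimate with ASO1, with a median of 0.60 that was 0.00 without ASO1 tumor 3. After Slc47a1 the smallest p values on this list belonged to Abcc1, a multidrug efflux pump (0.69 ± 0.27), Slc22a4, an organic cation carrier (-0.87 ± 0.40), and Abcb1b, the P-glycoprotein pump (1.02 ± 0.50). Slco2a1, the prostaglandin transporter and the most abundant member, had a log2 fold change of 0.51 ± 0.26.

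Ccnd1, the gene of cyclin D1 that drives cells into S phase, stood at 412, 453 and 492 CPM with ASO1 and at 116, 219, 227 and 188 CPM with ASO2. The control tumors, at 201, 261 and 383 CPM, overlapped the ASO2 tumors. The log2 fold change was 1.27 ± 0.27 (SE, edgeR adjusted p = 0.423). Vldlr, a lipoprotein receptor, stood at 109, 142 and 139 CPM with ASO1 and at 71.4, 82.9, 71.7 and 73.5 CPM with ASO2, and control tumors at 118, 108 and 91.3 CPM reached into the ASO1 range.

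Several genes of this set vary strongly among the ASO1 tumors. Tbx2, a T-box repressor of the mammary lineage, had 54.4 CPM in ASO1 tumor 3 but 7.66 and 9.35 CPM in ASO1 tumors 1 and 2, against 2.1 to 4.32 CPM with ASO2. Its log2 fold change of 2.80 ± 0.63 was 1.31 without ASO1 tumor 3. Fetub, a secreted cystatin-family protease inhibitor, had 57.7 CPM in ASO1 tumor 2 and 7.62 and 4.95 CPM in ASO1 tumors 1 and 3, against 1.12 to 2.1 CPM with ASO2, and its log2 fold change of 3.99 ± 0.80 was 2.07 without ASO1 tumor 2. In both genes 1 tumor carries most of the mean.

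The remaining genes with a higher estimate with ASO1 spanned log2 fold changes from 0.75 ± 0.17 to 2.47 ± 0.55 (SE), and none of them overlapped between the ASOs, as the choice by p favors. They were Nid2, a nidogen of the basement membrane, Ednrb, the endothelin receptor type B, and Gpihbp1, which holds lipoprotein lipase at the capillary wall. Also among them were Tnfrsf11b, the decoy receptor osteoprotegerin, Rasa3, which restrains Ras, Stard13, and Gpd2, the mitochondrial glycerol phosphate dehydrogenase. Ripor2 and Lclat1, a lysophospholipid acyltransferase, complete the set. Nid2 stood at 26.2, 22.5 and 21.0 CPM with ASO1 and at 3.04, 8.44, 3.68 and 1.37 CPM with ASO2, and Ednrb at 17.7, 11.7 and 20.2 CPM against 6.12, 5.02, 4.52 and 2.1 CPM.

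**Figure D2:**
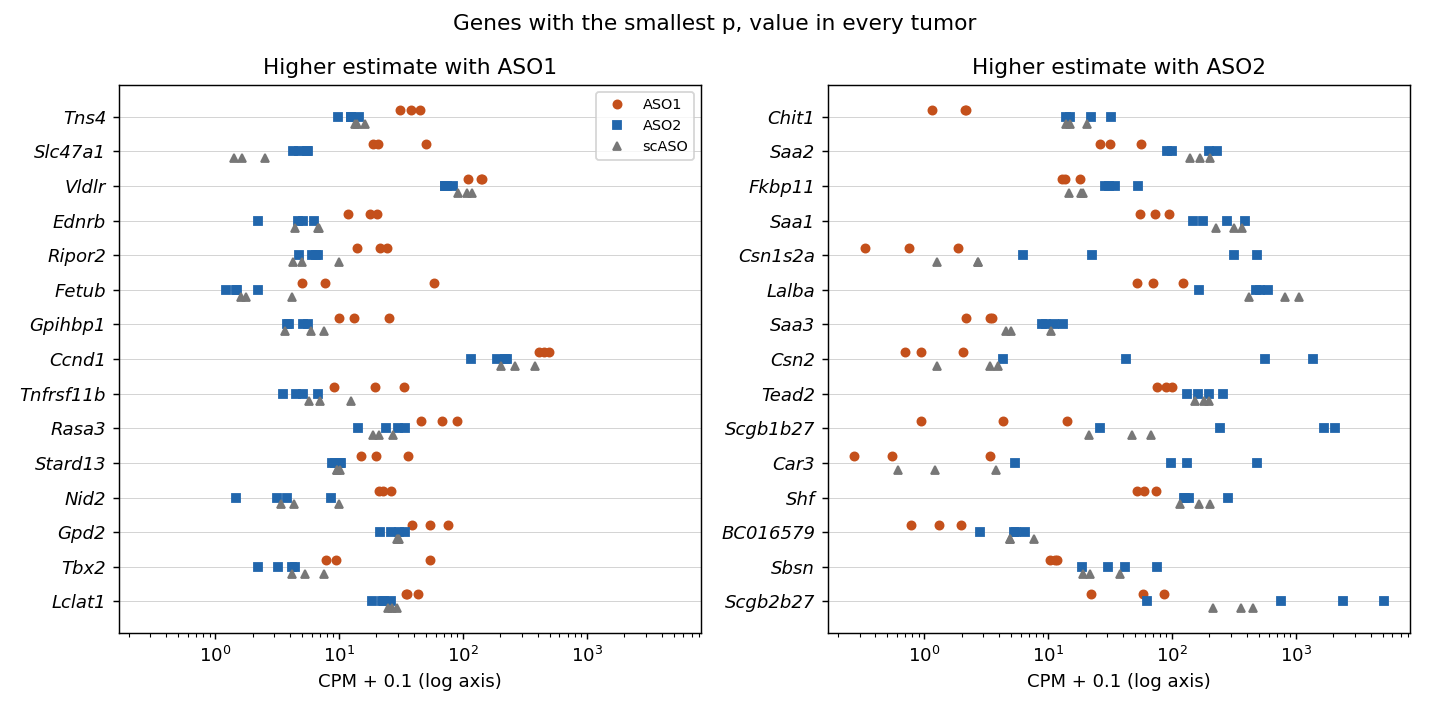
The 15 genes per direction with the smallest p between ASO1 and ASO2 tumors, each point 1 tumor (circles ASO1, squares ASO2, triangles scASO), on a log axis of CPM plus 0.1. On the left, ASO1 tumors lie to the right of ASO2 tumors, with Slc47a1 at 18.7 to 50.3 against 4.16 to 5.52. On the right, caseins and secretoglobins spread widely among ASO2 tumors, while Chit1 lies at 1.05 to 2.06 with ASO1 and 13.8 to 31.8 with ASO2.

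The smallest p of all genes belonged to Chit1 (chromosome 1, 134111242 to 134151540), which encodes chitotriosidase, a secreted chitin-cleaving enzyme best known from macrophages. It stood at 2.02, 1.05 and 2.06 CPM with ASO1 and at 13.8, 21.8, 14.8 and 31.8 CPM with ASO2. The control tumors held 20.4, 13.7 and 15 CPM, all above every ASO1 tumor. The value of 13.7 CPM lay just under the ASO2 range and the others within it. ASO2 exceeded ASO1 12-fold in the means (log2 fold change -3.59 ± 0.41 SE, edgeR adjusted p = 0.0577), and without any 1 tumor the log2 fold change stayed between -3.78 and -3.30. Of 21 macrophage genes tested, 10 had the higher estimate with ASO1 and 11 with ASO2, with a median of -0.00. Adgre1, Csf1r and Cd68 summed to 64.0 to 214 CPM with ASO1 and 99.6 to 146 CPM with ASO2. Which cells held the Chit1 RNA was not tested.

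Serum amyloid A genes, which encode acute phase apolipoproteins also made by mammary epithelium, had the higher estimate with ASO2. Saa1 stood at 94.0, 54.7 and 72.6 CPM with ASO1, at 178, 148, 275 and 390 CPM with ASO2, and at 367, 226 and 315 CPM with scASO. Saa2 stood at 55.5, 26.3 and 31.5 CPM with ASO1, at 90.9, 99.9, 197 and 230 CPM with ASO2, and at 203, 139 and 169 CPM with scASO. For both genes the ASO1 tumors lay under every other tumor, and the control tumors lay within the ASO2 range. Log2 fold changes were -1.75 ± 0.35 for Saa1, -2.03 ± 0.39 for Saa2 and -1.86 ± 0.38 for Saa3 (SE, edgeR adjusted p = 0.423 each). Saa1 and Saa2 are close copies on chromosome 7, and reads with several alignments were not counted, so their values are uncertain.

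Of 16 tested genes on the list of acute phase and secreted defense proteins, 12 had the higher estimate with ASO2, 4 did not overlap in that direction, and the median was -0.49, or -0.78 without ASO1 tumor 2. The mean log2 CPM of the list was 5.40 ± 0.34 with ASO1 and 6.2 ± 0.20 with ASO2 (SD, n = 3 and 4), and the tumors of the groups did not overlap in it. After the serum amyloid genes came Orm1, an acute phase glycoprotein (-2.36 ± 0.85). Lcn2, the iron-scavenging lipocalin and the most abundant member, stood at 2570 to 4339 CPM with ASO1 and 2159 to 5246 CPM with ASO2 (-0.11 ± 0.35).

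Several milk protein genes had the higher estimate with ASO2. Csn2, beta-casein, the main casein of mouse milk, is shown with its neighbour Csn1s1, alpha-s1-casein, because the caseins stand in a cluster on chromosome 5, where they are switched on together by prolactin through STAT5. The 250 bases before each start site (RefSeq, GRCm38.p6) were searched on both strands for TTCNNNGAA, the palindromic core that STAT5 binds, and matches are in capitals.
Csn2, chr5:87699426-87699675, minus strand: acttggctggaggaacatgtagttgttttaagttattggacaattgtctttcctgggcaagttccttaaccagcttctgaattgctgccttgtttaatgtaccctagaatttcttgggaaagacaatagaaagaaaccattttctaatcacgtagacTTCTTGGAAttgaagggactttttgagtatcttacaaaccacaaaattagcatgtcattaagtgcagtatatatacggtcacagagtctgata
Csn1s1, chr5:87665958-87666207, plus strand: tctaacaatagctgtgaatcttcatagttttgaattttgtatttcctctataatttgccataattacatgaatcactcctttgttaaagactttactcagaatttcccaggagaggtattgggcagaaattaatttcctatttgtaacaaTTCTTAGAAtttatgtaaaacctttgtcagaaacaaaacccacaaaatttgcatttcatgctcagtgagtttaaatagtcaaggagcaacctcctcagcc

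The match lies 93 to 85 bases before the start of Csn2 and 100 to 92 bases before that of Csn1s1. Such a match was present in this window in 7.02% of 32851 promoters. Of 8 milk genes sought among these promoters, 6 were found; Glycam1 held 1 match, and Csn1s2a, Lalba and Wap held 0 matches in the window. A match describes letters only and does not show that a factor was bound in these tumors.

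Csn2 stood at 0.603, 1.95 and 0.843 CPM with ASO1 and at 42.2, 1361, 561 and 4.21 CPM with ASO2. ASO2 tumors 2 and 3 held most of it, ASO2 tumor 1 far less, and ASO2 tumor 4 was near the control tumors, which held 3.30, 1.16 and 3.80 CPM. The log2 fold change between the ASOs was -8.69 ± 1.84 (SE, edgeR adjusted p = 0.423), and it was -7.41 without ASO2 tumor 2. Csn1s2a showed the same order, at 0.646, 0.234 and 1.75 CPM with ASO1 and 22.3, 485, 316 and 6.10 CPM with ASO2 (-7.93 ± 1.61). Csn1s1 overlapped between the groups, at 62.8, 16.8 and 10.5 CPM with ASO1 and 42.1, 822, 390 and 10.4 CPM with ASO2. Glycam1, a milk mucin, was at 635 and 182 CPM in ASO2 tumors 2 and 3 and at 0 to 18.0 CPM in the other 5 tumors with an ASO against Malat1.

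Lalba, alpha-lactalbumin, the cofactor of lactose synthesis, had another pattern. It stood at 123, 70.5 and 51.6 CPM with ASO1, at 164, 476, 598 and 516 CPM with ASO2, and at 811, 419 and 1060 CPM with scASO. Here ASO2 tumors overlapped the control tumors and ASO1 tumors lay under both (-2.42 ± 0.50 between the ASOs, edgeR adjusted p = 0.423). The most abundant milk protein RNA, Csn3 or kappa-casein, stood at 1444 to 8684 CPM with ASO1 and 5327 to 9694 CPM with ASO2 (-0.59 ± 0.50), and the whey acidic protein gene Wap at 5.29 to 76.4 CPM with ASO1 and 5.03 to 70.9 CPM with ASO2 (-0.07 ± 0.95). The milk genes thus split into caseins that were high in ASO2 tumors 2 and 3, Lalba that was low in ASO1 tumors, and Csn3 and Wap, which overlapped.

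Of 15 milk protein genes tested, 12 had the higher estimate with ASO2, 8 at an unadjusted p under 0.05 and 6 without overlap, with a median of -0.99. Their mean log2 CPM was 5.44 ± 0.32 with ASO1, 7.37 ± 1.17 with ASO2 and 6.11 ± 0.44 with scASO (SD, n = 3, 4 and 3), with no overlap between the ASOs. Of 19 genes of milk fat and lipid synthesis, 15 had the higher estimate with ASO2 (median -0.29, or -0.46 without ASO1 tumor 1 and -0.52 with muscle and adipocyte covariates). Those with the smallest p were Fabp3, a fatty acid carrier at 0.236 to 0.410 CPM with ASO1 and 0.526 to 4.0 CPM with ASO2, Dgat1, which completes triglycerides (-0.79 ± 0.25), and Xdh, which coats milk fat droplets (-0.78 ± 0.28). Scd1, the stearoyl-CoA desaturase, is the most abundant member as well (-0.89 ± 0.29).

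The signalling genes of secretory activation gave 12 of 17 with the higher estimate with ASO2 and a median of -0.14, which ran from -0.53 (without ASO1 tumor 3) to -0.14 with 1 tumor left out. Stat5a, which carries the prolactin signal to milk genes, stood at 72.0, 27.3 and 70.0 CPM with ASO1 and at 133, 92.9, 113 and 98.8 CPM with ASO2, without overlap (-0.96 ± 0.30, edgeR adjusted p = 0.493). Its neighbour and close relative Stat5b stood at 79.3, 33.6 and 75.9 CPM against 130, 96.2, 98.6 and 92.3 CPM (-0.73 ± 0.27). The control tumors were within or near the ASO2 range for both (96.1 to 120 and 111 to 122 CPM), and ASO1 tumor 2 was the lowest library for both. Aqp5, a water channel (-1.08 ± 0.40), and Cldn8, a claudin (0.94 ± 0.41), lay on opposite sides, and Ehf, an epithelial ETS factor and the most abundant member, at 0.02 ± 0.36.

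A second secretory group had the higher estimate with ASO2, with an order over the tumors that differed from that of Csn2. Scgb1b27 and Scgb2b27, secretoglobins of the androgen-binding protein family that salivary and lacrimal glands of mice secrete, are on chromosome 7. Scgb1b27 stood at 4.18, 0.839 and 14.1 CPM with ASO1 and at 2074, 26.2, 242 and 1673 CPM with ASO2, with 21.4, 47.7 and 66.9 CPM in control tumors. Scgb2b27 stood at 58.0, 22.2 and 85.7 CPM with ASO1 and at 5128, 62.7, 760 and 2375 CPM with ASO2, so that ASO2 tumor 2 fell within the ASO1 range. Log2 fold changes were -7.31 ± 1.60 and -5.23 ± 1.23, and with muscle and adipocyte covariates -3.04 and -0.82. These secretoglobins belong to a large family of near copies, so that their values are uncertain.

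Because of these names, 13 genes that these glands secrete or that mark their secretory cells were listed after the values had been seen. The secretoglobins that prompted the list are among its members, so no sum over it is given. Of the others, Car6, a secreted carbonic anhydrase, stood at 47.0 to 92.1 CPM with ASO1 and at 939, 40.6, 259 and 761 CPM with ASO2, whereas Smr3a and Dcpp3, salivary proteins, were highest in ASO1 tumors (17.7 CPM in tumor 3 and 9.02 CPM in tumor 2). Smr2 and Prol1 also had the higher estimate with ASO1 (log2 fold changes 1.06 and 0.29), but both overlapped between the ASOs. Prol1 stood at 1.21, 0 and 13.3 CPM with ASO1 and at 13.4, 0.0935, 0.800 and 1.26 CPM with ASO2. Amy1, Lpo, Pip and Bhlha15, as Car6, had the higher estimate with ASO2 (-2.26, -2.92, -2.92 and -0.71). The listed genes thus did not share 1 direction, with Smr3a and Dcpp3 opposite to Car6. Among tumors with an ASO against Malat1, Car6, Pip and Lpo, as Scgb1b27, were highest in ASO2 tumors 1 and 4. Amy1 and Bhlha15 did not have this order. The part of gland tissue in the result was not tested.

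The remaining genes with the smallest p and a higher estimate with ASO2 were Fkbp11, a proline isomerase of the secretory pathway, Tead2, a DNA-binding partner of YAP, and Shf, a signalling adaptor. Fkbp11 stood at 13.5, 12.7 and 18.0 CPM with ASO1 and at 34.3, 31.0, 28.4 and 52.7 CPM with ASO2, with the control tumors (18.8, 14.6 and 18.3 CPM) near ASO1. Tead2 stood at 100.2, 88.5 and 74.9 CPM with ASO1 and at 258, 131, 162 and 200 CPM with ASO2, with the control tumors (152, 179 and 199 CPM) near ASO2. Shf, Sbsn, an epithelial secreted protein, and BC016579 had log2 fold changes of -1.44 ± 0.32, -1.89 ± 0.44 and -1.96 ± 0.45. Car3, a carbonic anhydrase abundant in fat and muscle, stood at 0.172, 0.449 and 3.27 CPM with ASO1 and at 481, 5.33, 132 and 98.7 CPM with ASO2, and its log2 fold change of -7.12 was -2.30 with muscle and adipocyte covariates.

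Fat and muscle transcripts also differed among these tumors. Of 20 white adipocyte genes tested, 17 had the higher estimate with ASO2 (median -1.71), among them Adipoq, the hormone adiponectin, at 0, 0.137 and 0.775 CPM with ASO1 and 74.7, 0.623, 32.8 and 18.7 CPM with ASO2. Retn, the hormone resistin, stood at 0.156 to 0.472 CPM with ASO1 and at 57.9, 0.467, 12.3 and 14.5 CPM with ASO2, and Cidec, of lipid droplets, at 0 to 0.640 CPM against 44.9, 0.530, 27.4 and 10.2 CPM. Cd36, a fatty acid receptor, had a log2 fold change of -2.68 ± 0.66. Thrsp, which fat shares with mammary epithelium and which is the most abundant member, had -1.06 ± 0.38. The list median was -0.10 with muscle and adipocyte covariates, a move that was built in because that fit holds the adipocyte level itself. The sum of Adipoq, Plin1, Fabp4, Cidec and Lep was 6.07 to 15.8 CPM with ASO1, 562, 8.63, 243 and 143 CPM with ASO2, and 4.36 to 5.98 CPM with scASO, and ASO2 tumor 2 thus lay with the ASO1 tumors. The brown fat gene Ucp1 was at 0 to 0.525 CPM in the 7 tumors.

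Of 22 skeletal muscle genes tested, 20 had the higher estimate with ASO2 and the median was -5.24, or -1.44 without ASO2 tumor 1. Myh4, a fast myosin, stood at 551 CPM in that tumor, at 3.61, 0 and 13.8 CPM in ASO2 tumors 2, 3 and 4, and at 0.0430 to 0.135 CPM with ASO1. The next smallest p values belonged to Myl1, Pvalb and Ckm, a myosin light chain, a calcium buffer and creatine kinase, at 93.1 to 308 CPM in ASO2 tumor 1 and at most 0.303 CPM in ASO1 tumors, too few reads there for a fold change. Mb, myoglobin, the most abundant member, had 0.02 ± 0.49. In the sums given, ASO2 tumor 3 for muscle and ASO2 tumor 2 for fat did not exceed the ASO1 range. Muscle and fat transcripts were thus high in some ASO2 tumors and not in others. Their part in the gene results was not tested beyond the fit that holds both levels as covariates, in which 23 of the 30 genes named by p still had an unadjusted p under 0.05 and 30 of 30 kept their direction. These 30 were chosen for small p in the same tumors, and over all genes 221 of 1743 kept an unadjusted p under 0.05 in that fit. Estimates became smaller in size there for several of the 30, among them Scgb1b27, Scgb2b27 and Car3, as given above. Further ones were Tead2 (-0.59), BC016579 (-1.06), Sbsn (-1.24), Lclat1 (0.44) and Ccnd1 (0.86). Others became larger, among them Tns4 (2.04), Chit1 (-3.86) and Lalba (-3.39).

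Fibroblast genes did not share 1 direction: 15 of 24 had the higher estimate with ASO2, the median was -0.21, and it was -0.68 without ASO1 tumor 3, -0.41 without ASO2 tumor 4, 0.02 without ASO2 tumor 3 and 0.55 with muscle and adipocyte covariates. The smallest p values belonged to Mfap5 (-2.04 ± 0.53), Lum (-3.00 ± 0.84), Dpt (-3.31 ± 1.03), which encode matrix proteins, and Pi16 (-2.07 ± 0.75), a fibroblast surface gene. Lum, lumican, stood at 158 CPM in ASO2 tumor 1 and 14.8 to 36.0 CPM in the other ASO2 tumors, against 4.57 to 11.6 CPM with ASO1. Postn, periostin, the most abundant member, overlapped (0.35 ± 0.55).

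Genes of luminal epithelium, the milk-forming layer, had the higher estimate with ASO2 in 16 of 20 members, with 8 at an unadjusted p under 0.05, 3 without overlap, and a median of -0.45. Epcam, the epithelial adhesion molecule and most abundant member, stood at 828, 718 and 770 CPM with ASO1, at 1057, 880, 1164 and 1323 CPM with ASO2 and at 1164, 1085 and 1041 CPM with scASO. ASO1 tumors lay under the other tumors in this gene (-0.52 ± 0.19, edgeR adjusted p = 0.493). Cldn7, a claudin (-0.77 ± 0.22), St14, the protease matriptase (-0.56 ± 0.17), and Esrp2, an epithelial splicing factor (-0.78 ± 0.27), had the smallest p. The median was -0.30 without ASO2 tumor 4 and -0.18 with muscle and adipocyte covariates.

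Basal and myoepithelial genes, which mark the contractile outer layer, had the opposite order. Of 19 tested, 18 had the higher estimate with ASO1, 7 at an unadjusted p under 0.05, with a median of 1.18. Only 1 was without overlap, where 2.97% of all genes tested were higher in every ASO1 tumor. Acta2, smooth muscle actin, the most abundant member, stood at 1255, 143 and 2213 CPM with ASO1 and at 198, 409, 513 and 221 CPM with ASO2 (1.84 ± 0.78, edgeR adjusted p = 0.493). Oxtr, the oxytocin receptor of myoepithelium, stood at 155, 14.4 and 239 CPM against 25.5, 35.5, 66.3 and 20.6 CPM. ASO1 tumors 1 and 3 were high in both genes, and ASO1 tumor 2 was under all ASO2 tumors. Jag2, a Notch ligand (1.68 ± 0.55), and Col16a1 (1.14 ± 0.46) also overlapped, whereas Krt17, a basal keratin, did not (59.1 to 84.7 against 9.68 to 51.2 CPM). Without ASO1 tumor 3 the median was 0.61.

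Basement membrane genes had the higher estimate with ASO1 in 14 of 18 members, 9 at an unadjusted p under 0.05. Nid2 was the 1 member without overlap, where 2.97% of all genes tested were higher in every ASO1 tumor. The list median was 0.91, or 0.34 without ASO1 tumor 3. Col4a1 and Col4a2, the collagen IV chains, stood at 850, 399 and 1687 CPM and at 442, 246 and 1140 CPM with ASO1, against 123 to 508 and 74.6 to 299.6 CPM with ASO2. ASO1 tumor 2 lay within the ASO2 range in both. Lama4, a laminin chain of vessels, had 0.83 ± 0.30, and Sparc, a collagen-binding protein and the most abundant member, 0.72 ± 0.56.

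Endothelial genes had the higher estimate with ASO1 in 20 of 22 members, 14 at an unadjusted p under 0.05, and 9 of 22 were higher in every ASO1 tumor, with a median of 1.00. Pecam1 and Cdh5, adhesion molecules of vessels, stood at 24.5, 33.2 and 41.7 CPM and at 20.9, 24.1 and 32.8 CPM with ASO1, against 7.54, 15.6, 24.1 and 7.36 CPM and 17.1, 10.8, 13.4 and 8.0 CPM with ASO2. The control tumors, at 15.5 to 18.3 and 12.7 to 15.4 CPM, lay within the ASO2 range for both. Log2 fold changes were 1.83 ± 0.38 for Gpihbp1, 1.31 ± 0.33 for Plvap, of capillary diaphragms, 1.07 ± 0.27 for Cdh5, and 1.23 ± 0.35 for Robo4, a vessel guidance receptor (SE, edgeR adjusted p = 0.423 to 0.490). Rbp7, a retinol carrier of capillaries and the most abundant member, had 0.98 ± 0.44. The mean log2 CPM of the list was 3.52 ± 0.45 with ASO1 and 2.70 ± 0.42 with ASO2 (SD, n = 3 and 4), without overlap. With muscle and adipocyte covariates the median was 1.28, and without ASO1 tumor 3 it was 0.69.

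**Figure D3:**
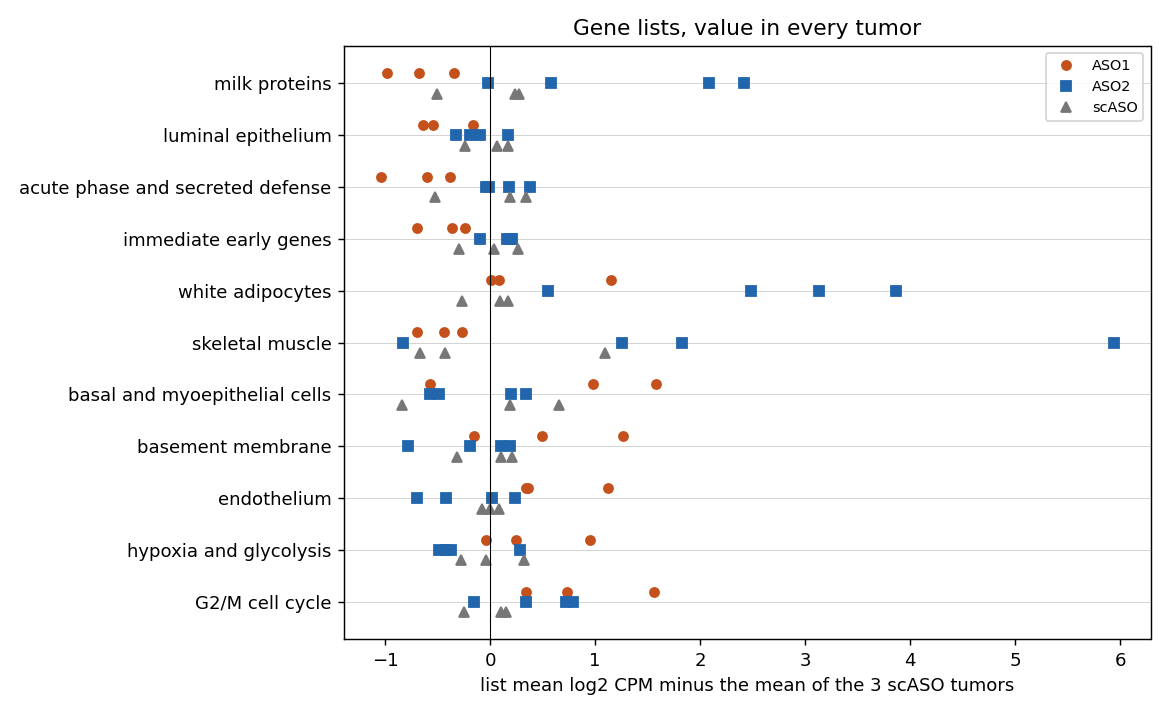
Mean log2 CPM over the tested members of 11 gene lists in each tumor, minus the mean of the 3 scASO tumors (vertical line at 0). Circles are ASO1 tumors, squares ASO2 and triangles scASO, each point 1 tumor. Milk protein, acute phase and immediate early genes lie higher in each ASO2 tumor than in each ASO1 tumor and endothelial genes lower, while muscle genes are high mainly in ASO2 tumor 1.

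Immediate early genes, which growth signals and stress switch on quickly, had the higher estimate with ASO2 in 19 of 21 members, 8 at an unadjusted p under 0.05 and 6 without overlap. Zfp36, which destabilizes cytokine RNAs, stood at 44.1, 47.4 and 51.4 CPM with ASO1 and at 75.1, 67.0, 70.5 and 78.7 CPM with ASO2. Ier2 stood at 80.6, 85.0 and 88.8 CPM against 122, 130, 104 and 146 CPM. In both genes the control tumors (59.4 to 82.9 and 105 to 126 CPM) lay above the ASO1 tumors and overlapped the ASO2 tumors. Log2 fold changes were -0.61 ± 0.15, -0.56 ± 0.15, -0.77 ± 0.24 for the phosphatase gene Dusp1 and -0.66 ± 0.22 for Jund, an AP-1 subunit and the most abundant member (SE, edgeR adjusted p = 0.453 to 0.493). The list median was -0.61, and with muscle and adipocyte covariates -0.33.

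Genes of hypoxia and glycolysis had the higher estimate with ASO1 in 24 of 26 members, with a median of 0.58. At an unadjusted p under 0.05 stood 5 members, and 1 was without overlap, where 2.97% of all genes tested were higher in every ASO1 tumor. Vegfa, the vessel growth factor, stood at 236, 491 and 123 CPM with ASO1 and at 150, 172, 79.8 and 55.5 CPM with ASO2, and Pfkfb3, a glycolysis regulator, at 65.4, 176 and 54.7 CPM against 37.5, 77.7, 39.3 and 25.9 CPM. ASO1 tumor 2 was highest and ASO2 tumor 2 highest of its group in both. P4ha1, a collagen prolyl hydroxylase (1.34 ± 0.42), was without overlap, whereas Adm, adrenomedullin (1.69 ± 0.69), and Pkm, pyruvate kinase and the most abundant member (0.58 ± 0.30), overlapped. The median was 0.22 without ASO1 tumor 2 and 0.01 with muscle and adipocyte covariates.

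Cell cycle genes of G2 and M phase had the higher estimate with ASO1 in 25 of 28 members, with 6 at an unadjusted p under 0.05, 0 without overlap, and a median of 0.57. Mki67, the proliferation marker Ki-67 and the most abundant member, stood at 455, 726 and 309 CPM with ASO1 and at 250, 332, 388 and 386 CPM with ASO2 (0.55 ± 0.28). The centromere genes Cenpf and Cenpe (0.74 ± 0.22 and 0.90 ± 0.35), Anln, anillin (0.75 ± 0.26), and the mitotic kinesin Kif20a (1.03 ± 0.43) had the smallest p. The median was 0.10 without ASO1 tumor 2 and -0.16 with muscle and adipocyte covariates, so that its direction depends on that fit.

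**Figure D4:**
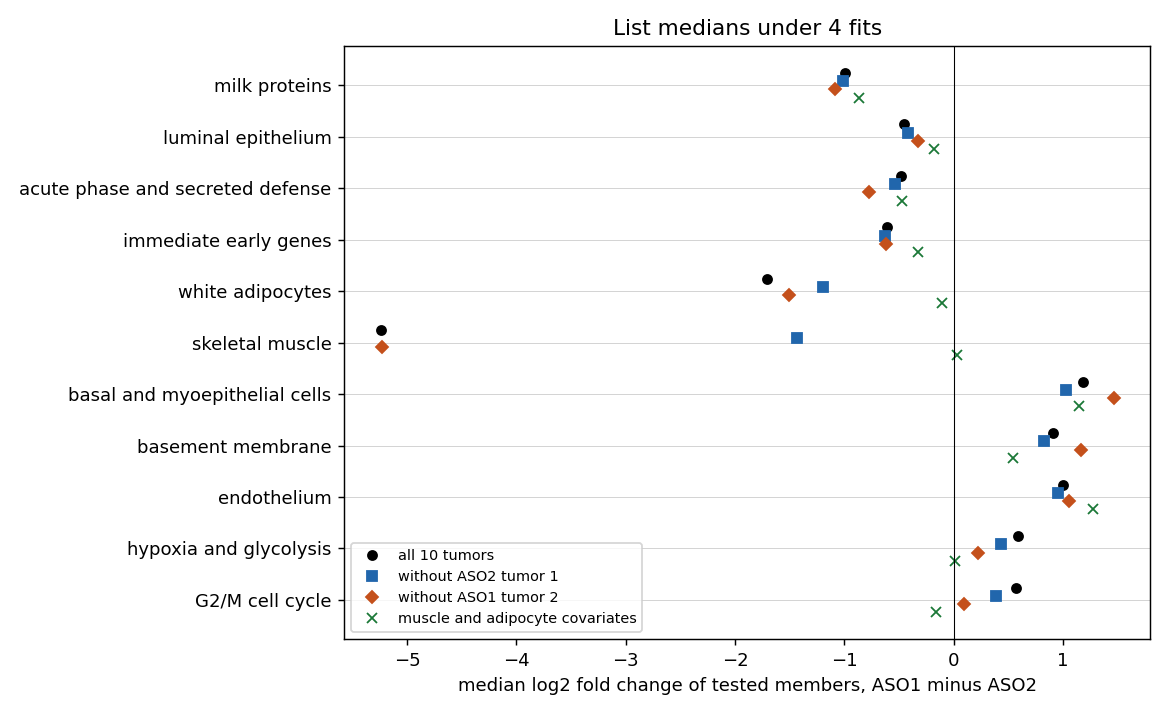
Median log2 fold change, ASO1 minus ASO2, over the tested members of 11 gene lists under 4 fits, all tumors (circles), without ASO2 tumor 1 (squares), without ASO1 tumor 2 (diamonds) and with muscle and adipocyte levels as covariates (crosses). Endothelial genes keep 0.95 to 1.28 in these fits, whereas the G2/M list moves from 0.57 to -0.16. The muscle list moves from -5.24 to 0.03 in the covariate fit. That fit holds the muscle level itself, so this move was built in.

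Lists tied to the oligonucleotides themselves lay near the median of all genes. Of 21 uptake receptors, trafficking proteins and RNase H1 genes tested, 10 had the higher estimate with ASO1 and the median was -0.06, running from -0.17 (without ASO1 tumor 2) to 0.08 (without ASO2 tumor 4). Besides Cd36 the smallest p belonged to Sidt1, a transmembrane protein linked to RNA uptake, at 35.4, 65.9 and 38.4 CPM with ASO1 and 278, 54.6, 116 and 259 CPM with ASO2 (-1.92 ± 0.51), and to Lrp1, an endocytic receptor (1.08 ± 0.43). Hmgb1 (-0.37 ± 0.18), which binds nucleic acids, and the chaperone gene Hspa8 (0.37 ± 0.34), the most abundant member, overlapped. Of 19 nucleic acid sensors, 13 had the higher estimate with ASO1 and the median was 0.04, with 0 at an unadjusted p under 0.05.

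Type I interferon response genes, which sensed nucleic acid can switch on, had the higher estimate with ASO1 in 15 of 32 members, with a median of -0.03. With 1 tumor left out the median ran from -0.89 (without ASO1 tumor 2) to 0.38 (without ASO1 tumor 1), and it was 0.14 without ASO1 tumor 3 and 0.24 without ASO2 tumor 4, so its sign is not settled. Their mean log2 CPM ran from 5.0 to 7.57 over ASO1 tumors and from 6.13 to 7.15 over ASO2 tumors, so tumors of 1 group differed more than the groups. Ifit2 was at 29.96, 267 and 37.6 CPM with ASO1 and 25.8 to 65.2 CPM with ASO2 (1.51 ± 0.67, and -0.23 without ASO1 tumor 2). Isg20 (0.88 ± 0.46), Oas2 (-1.43 ± 0.80), Trim25 (-0.30 ± 0.22) and Irf7, the most abundant member (-0.46 ± 0.50), lay on both sides.

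Nuclear speckle and splicing factor genes, the neighbours of Malat1 RNA inside the nucleus, had the higher estimate with ASO2 in 22 of 26 members, with a median of -0.20 that was -0.32 without ASO1 tumor 2 and -0.11 without ASO2 tumor 1. Srsf6, a splicing factor of the SR family, stood at 380, 350 and 435 CPM with ASO1 and at 776, 443, 497 and 503 CPM with ASO2 (-0.51 ± 0.22, edgeR adjusted p = 0.493). It was the single member without overlap, where 2.97% of all genes tested were higher in every ASO2 tumor. Srsf2, Srsf5 and the kinase gene Clk2 had -0.52 ± 0.25, -0.42 ± 0.20 and -0.42 ± 0.21, each highest in ASO2 tumor 1. Srrm2, the speckle scaffold and most abundant member, had -0.05 ± 0.22. With muscle and adipocyte covariates the median was 0.08.

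The same pair of ASOs was given to tumor organoids at 500 nM for 6 days, which offers libraries independent of these tumors. Before these are read, Malat1 has to be set beside their labels. It stood at 169, 102, 80.4 and 117 CPM in ASO1 organoids 1 to 4, and at 1343, 198, 88.6 and 287 CPM in those labelled ASO2, with 762, 106, 730 and 1129.9 CPM for scASO and 667 to 1447 CPM for Mock. The library labelled ASO2 organoid 1 lay in the range of untreated cultures and the library labelled scASO organoid 2 in the range of the Malat1 ASOs. Both went against their labels, so results are given with and without them.

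Between ASO1 and ASO2 organoids edgeR called 0 of 17126 genes (percent called 0), with 26 (0.152%) at an unadjusted p under 0.05, and DESeq2 called 0, with 32 at that level. Organoid libraries with the same number deviated together, and with the number as a block 0 were called and 342 (2.0%) stood at an unadjusted p under 0.05. Without the 2 libraries and with the block, 0 were called and 453 (2.61%) stood at that level. By the same rule as in tumors, the smallest p belonged to Baiap2l1, a membrane-curving adaptor, at 27.7, 27.7, 18.8 and 19.8 CPM with ASO1 and 43.7, 35.5, 29.2 and 34.5 CPM with ASO2 (-0.61 ± 0.19). On the other side it belonged to Xpnpep3, a peptidase (0.29 ± 0.12), and Rev1, a DNA polymerase of lesion bypass (0.42 ± 0.17). Apart from Malat1 itself, the tumor genes named above were not among the 5 per direction with the smallest p in organoids.

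Of the 30 tumor genes named by p, 27 could be tested in organoids, and 16 of 27 had the same direction there, with 0 at an unadjusted p under 0.05. Without the 2 libraries and with the block these were 19 of 28 and 1, Scgb1b27, which had 0 CPM in most cultures. Tns4 stood at 49.1, 109, 45.7 and 143 CPM in ASO1 organoids and 74.6, 98.9, 32.7 and 127 CPM in those labelled ASO2 (0.06 ± 0.48). With the block and without the 2 libraries its log2 fold change was 0.18 ± 0.14, with an unadjusted p of 0.243 in edgeR. Slc47a1 had -0.15 ± 0.60, Ccnd1 0.07 ± 0.36 and Lalba 0.15 ± 1.19. Csn2 was at 0.0246 to 0.332 CPM in these 8 cultures and did not pass the filter on low counts.

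Chit1 was the 1 gene of 18695 (0.00535%) called for a difference between tumors and organoids in the ASO1 to ASO2 contrast, in a fit of all 26 libraries. In organoids it stood at 81.9, 82.2, 89.3 and 77.8 CPM with ASO1 and at 92.8, 96.5, 96.6 and 71.6 CPM in those labelled ASO2, and at 63.7 to 90.9 CPM with scASO and Mock. These cultures overlapped throughout, and the organoid log2 fold change was -0.11 ± 0.12. The tumor difference minus the organoid difference was -3.50 ± 0.35 (SE, edgeR adjusted p = 2.14e-05), and -3.53 without the 2 libraries, where Chit1 was again the 1 gene called (0.00537% of 18632). That fit gives tumors and organoids 1 shared estimate of spread and holds no block for the organoid numbers. Its SE is smaller than that of the tumor contrast alone (0.41), in which Chit1 was not called (edgeR adjusted p = 0.0577), so the call rests on the shared spread. At an unadjusted p under 0.05 stood 804 genes (4.30%), with Csn2 (-9.31 ± 1.77, edgeR adjusted p = 0.254) next in order. Csn2 did not pass the filter on low counts in organoids alone, so its value here mostly restates the tumor difference.

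**Figure D5:**
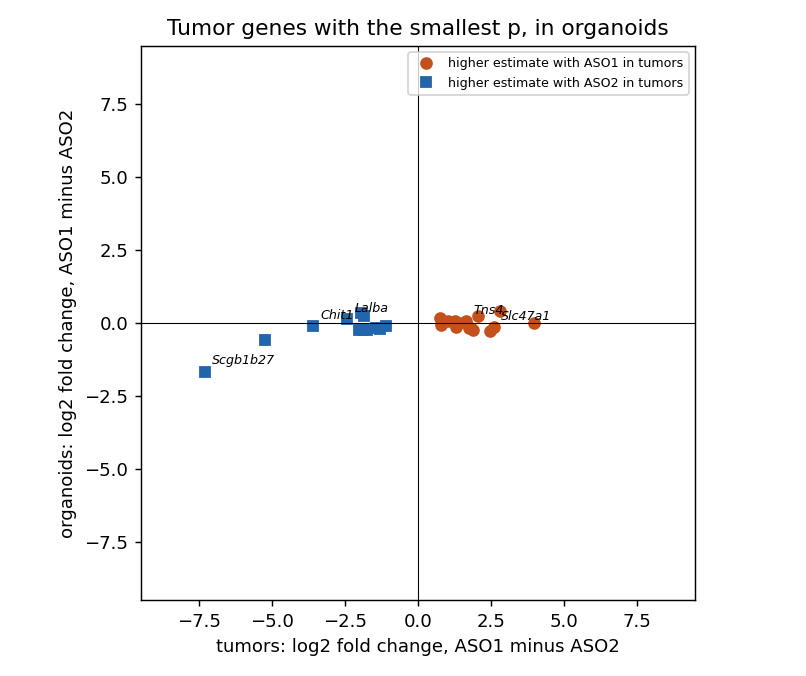
Log2 fold change between ASO1 and ASO2 in organoids (vertical axis) against that in tumors (horizontal axis) for the 27 of 30 tumor genes that were tested in organoids. Circles had the higher estimate with ASO1 in tumors, squares with ASO2, and both axes have the same scale. Tumor values of these 27 genes reach -7.31 (Scgb1b27, -1.66 in organoids), and Chit1 lies at -3.59 in tumors and -0.11 in organoids.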

How the data were processed

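Polyadenylated RNA was sequenced from 3 ASO1, 4 ASO2 and 3 scASO tumors and from 16 organoid cultures. The deposited values are raw read counts per gene, made by the authors with CASAVA, FastQC, STAR, HTSeq and DESeq2 on mm9, per the submitters' processing notes; the sources used here give no versions. The tables hold 37310 genes, of which 32620 had a symbol, and 5 lines of unassigned reads were removed. Groups come from the sample titles.

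Counts were filtered (filterByExpr, minimum count 10, total 15), scaled by TMM and tested with edgeR 4.0.16's quasi-likelihood test in R 4.3.3 over all 10 tumors, which share 1 estimate of spread, with Benjamini-Hochberg adjustment at 0.05. CPM uses scaled library sizes, with a prior count of 2 on the log2 scale. DESeq2 1.42.0, limma 3.58.1 voom, other scalings and filters, covariates, the replicate block and left-out tumors were alternatives. List medians with covariates or over the 7 tumors alone were added after seeing the data. The test was also run on simulated counts with the fitted spread of each gene. These held no outlying tumor such as ASO2 tumor 1, and no result here rests on them. Named genes were Malat1, Neat1, 15 genes per direction by smallest p among those with a symbol and mean log2 CPM no lower than 1, and, in each list described, 4 members by smallest p plus the most abundant. Other genes (Pecam1, Ucp1, further milk genes and the gland genes) are markers or were named after their values were seen. Of 984 members of 48 lists, 970 matched. The comparison and the lists were chosen with earlier results of these data known. Gene coordinates are from GENCODE M21 on GRCm38, since the tables hold no coordinates, and promoter sequences are from RefSeq.

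Organoid libraries with the same number deviated together (24 of 24 pairs had a correlation over 0.1), so the number pairs them in these data; tumor numbers did not.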

Additional observations from a re-analysis of the deposited data

Results flagged for a closer look

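Dixon's ratio was taken for 87 values in groups of 4 tumors, and chance flags about 1 in 20 such groups. Shf stood at 8.14 log2 CPM in ASO2 tumor 4, far above the other ASO2 tumors (6.97 to 7.10). In ASO2 tumor 2 the immediate early genes had a mean of 5.14 log2 CPM, under the other ASO2 tumors (5.40 to 5.45), and the hypoxia and glycolysis genes a mean of 6.63, above them (5.86 to 5.97). ASO2 tumor 4, the library with the fewest reads, stood apart in 3 further lists. Oxidative phosphorylation genes had a mean of 7.58 log2 CPM there (6.98 to 7.04 in the other ASO2 tumors). Genes tied to malignancy and invasion in MMTV-PyMT tumors had 4.87 (5.45 to 5.53), and Wnt signalling genes 2.25 (3.16 to 3.33).

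For Chit1 the difference between the ASOs was called as differing between tumors and organoids, by -3.50 on the log2 scale, in a fit that shares 1 spread between them.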

How the results depend on the processing

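The count of genes called between the ASOs was 0 with edgeR, 149 with DESeq2, 4 with no filter on low counts (Slc47a1, Tns4, Chit1 and Soga3), 5 with all 26 libraries in 1 fit (Chit1, Gpd2, Car3, Csn1s2a and Csn2), and 0 to 1 with a tumor left out (Soga3 without ASO2 tumor 4). At an unadjusted p under 0.05 stood 978 genes without ASO2 tumor 1, 2704 without ASO2 tumor 2, and 564 with muscle and adipocyte covariates, of which 221 were among the 1743. The Malat1 difference ran from -0.14 to 0.41 with a tumor left out. Of 2942 alternative values over 161 results, 51 single-gene values passed the threshold under an alternative alone (43 of them with DESeq2), and 41 list medians moved by more than the spread between tumors.

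Tumor numbers paired no tumors (2 of 9 correlations over 0.1, from -0.215 to 0.166). With the replicate block 0 tumor genes were called and 1023 stood at an unadjusted p under 0.05, and in organoids 0 and 342. The block turned Malat1 to -0.16, Ehf to -0.19 and Postn to -0.0025.

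Covariates turned Malat1 to -0.39, Cldn8 to -0.20, Ehf to -0.028, Dpt to 0.0091, Hmgb1 to 0.090, Hspa8 to -0.21, Slc22a4 to 0.10, Kif20a to -0.14, Pkm to -0.15, Srsf6 to 0.0071 and Srsf2 to 0.13. Limma voom turned Ehf to -0.14, Isg20 to -0.014 and Srrm2 to 0.083. Upper quartile scaling turned Ehf to -0.013, and a mean log2 CPM of at least 1 turned Ehf to -0.016 and Mb to -0.00382. With a tumor left out the edgeR log2 fold change ran from -0.093 to 0.33 for Malat1, -0.36 to 0.33 for Ehf, -0.33 to 0.080 for Lcn2, -0.36 to 1.13 for Sparc, -0.56 to 0.29 for Mb, -0.23 to 1.96 for Ifit2, -0.015 to 0.64 for Hspa8 and -0.19 to 0.038 for Srrm2. For all of these the cause was not tested. ASO2 tumor 4, the shallowest library, limits the precision of low genes.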

Other observations

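Mitochondrially encoded genes, the respiratory chain subunits read from mitochondrial DNA, had the higher estimate with ASO2 in 13 of 13 members, with a median log2 fold change of -0.66. Their mean was 6.15, 6.00 and 6.47 log2 CPM with ASO1 and 7.66, 6.21, 6.03 and 6.93 log2 CPM with ASO2, so the groups overlapped. ASO2 tumors 1 and 4 were high, and the median was -0.27 without ASO2 tumor 1 and 0.55 with muscle and adipocyte covariates. Hormone-sensing luminal genes had a mean of 5.29 log2 CPM in ASO1 tumor 3 and of 2.34 and 2.53 in ASO1 tumors 1 and 2, against 1.83 to 4.65 with ASO2.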
